A study of Mus musculus with 16 samples.

Results

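The 34 immediate early genes described here were found by symbol among the transcript clusters of a whole-transcriptome array, a transcript cluster being the group of probes that reports the RNA of a locus. Of these, 33 had a cluster of their own among 30426 genes, and where a gene had several clusters the one with the highest mean level stood for it. Junb, which encodes a Jun protein, had only a cluster shared with Prdx2 and gave no level. Fosl1, Ier3 and Maff had mean levels under the filter of 5.53 on the log2 scale and were left out of the main tests. The tests thus covered 30 members among 20284 genes. Cyr61 is given under its current symbol, Ccn1.

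The RNA came from mouse brain cells labelled as parvalbumin neurons and sorted by flow cytometry (FACS), with 4 arrays in each of 4 groups. Mice of the genotype PV-tdTomato/+, whose cells are labelled as without Cre, gave a group from dorsal striatum and a group from motor and somatosensory cortex. Mice of the genotype PVCre/+; tdTomato/+ gave the same regions. PV stands for parvalbumin, which binds calcium in fast-firing inhibitory interneurons, and tdTomato is a red fluorescent protein that all mice carried. Cre is a recombinase, here named after the parvalbumin locus or promoter that drives it. All mice were C57BL/6J, untreated, 30 days old and labelled male. Tissue was dissociated mechanically and enzymatically, and each array received RNA of 2000 cells pooled from 2 to 4 mice. An array is therefore a pool and not an animal, and p-values measure the spread between pools. The lines differed in the reporter as well as in Cre. No batch is given in the labels, so effects of Cre, of the reporter and of a batch shared by the arrays of a line cannot be told apart.

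Immediate early genes are transcribed within minutes of a stimulus and need no new protein for it. Growth factor and calcium signals reach them through the kinases ERK and CaMK and the DNA-binding factors SRF, ELK and CREB, which are already present in the resting cell. Many members encode transcription factors that carry the signal on, others are phosphatases and RNA-binding proteins that end it, and a few act at synapses. In brain, Arc and Npas4 are known as genes of neuronal activity, while Atf3, Zfp36 and Jun are induced in most cell types by stress, cytokines or injury. Nr4a2 was set with the neuron-restricted genes here, although it also responds in macrophages.

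Several arrays departed from their group or from the label of a parvalbumin neuron or a male. Pvalb lay between 6.69 and 8.40 (log2 level) in 6 arrays, namely PV-tdTomato replicates 3 and 4 of either region and PVCre cortex replicates 2 and 4. It lay between 10.20 and 12.48 in the other 10 arrays. Gad1, of GABA synthesis, was at 8.88 and 7.40 in those PVCre cortex arrays and at 11.63 or above in all others. The mean of 17 microglial markers was 5.31 to 5.84 in PV-tdTomato arrays, within the range of the background probe sets (2.95 to 6.10), and 7.39 to 9.96 in PVCre arrays. That range spans the means of 23 probe sets, whose median was 3.65 to 3.98 by array. The median of all probe sets was 5.97 to 6.13, so a level within this range need not mean absence. Xist, the RNA of the inactive X chromosome of females, was at 13.40 to 16.01 in 8 arrays labelled male and at 5.71 to 6.56 in the rest. High Xist was found in replicate 3 of both PV-tdTomato groups and in replicates 1, 3 and 4 of both PVCre groups. Positive control probe sets stood 4.16 to 4.85 above negative ones in PV-tdTomato and 3.08 to 3.93 in PVCre. Counts without the low-Pvalb arrays and without the high-Xist arrays are given beside the results.

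Stretches from 5 promoters are shown because these members rose together in both regions and carry, close to their start site, letters that known activators of the family bind. RefSeq promoters (GRCm38.p6) were found for 29 of the 34 members, and the 250 bases before the start were searched on both strands. Fosl1, Egr1, Egr3, Ier2 and Arc had no entry. The capitals mark, in Btg2 (chr1:134079286-134079335, minus strand), Dusp1 (chr17:26508583-26508632, minus strand) and Ppp1r15a (chr7:45526269-45526318, minus strand), the cyclic AMP response element TGACGTCA that CREB and ATF proteins bind. In Zfp36 (chr7:28379264-28379343, minus strand) they mark the EGR motif GCGGGGGCG and then a CArG box, the site of SRF. In Dusp5 (chr19:53529045-53529094, plus strand) they mark a pair of adjoining CArG boxes.
Btg2: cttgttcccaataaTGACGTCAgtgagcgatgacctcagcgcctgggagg
Dusp1: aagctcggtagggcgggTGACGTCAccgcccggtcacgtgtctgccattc
Ppp1r15a: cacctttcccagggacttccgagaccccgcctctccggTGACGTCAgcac
Zfp36: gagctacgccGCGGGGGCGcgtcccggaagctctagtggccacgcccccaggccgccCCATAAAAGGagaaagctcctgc
Dusp5: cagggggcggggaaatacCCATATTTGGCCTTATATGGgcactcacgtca

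TGACGTCA was in the window of 4 members, Btg2, Dusp1, Maff and Ppp1r15a, in 1.55% of the 32851 promoters of the table and in 2.74% of the 12102 genes tested that have a promoter there. The CArG box, the binding site of SRF, was in 3 members (Dusp5, Egr2 and Zfp36) and in 1.47% of promoters and of genes. GCGTGGGCG or GCGGGGGCG, the EGR motif, was in 7 members (Fosb, Fosl2, Klf2, Klf4, Maff, Nr4a1 and Zfp36), in 3.06% of promoters and in 5.92% of genes. The NF-kappaB motif was in 8 members (Egr2, Egr4, Fos, Fosb, Fosl2, Ier3, Maff and Npas4), in 7.25% of promoters and in 10.1% of genes. TGANTCA, the AP-1 motif, was in 0 of the 29 members, in 6.75% of promoters and in 5.88% of genes. A further 13 members, Atf3, Gadd45b and Nr4a2 among them, held none of these letters in this window. Egr2 has 5 promoters in the table, Maff 3 and Homer1 2, so these members had more bases searched than the rest, which have 1. The matches describe letters only.

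The comparison of PVCre with PV-tdTomato cells asked how the line changes what the sorted cells express, and most immediate early genes were higher in PVCre. Taking all 33 members with a level, without a filter, 27 rose and 0 fell in striatum, where 22.6% of 30426 genes rose and 27.7% fell (limma, adjusted p under 0.05). In cortex 26 rose and 1 fell, where 24.0% of genes rose and 26.9% fell. The median difference of the members (PVCre minus PV-tdTomato, log2 scale) was 1.51 in striatum and 1.47 in cortex, and that of all genes was -0.05 and -0.03. In sorted pools, fewer cells of a type and less RNA per cell cannot be told apart.

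Among the 30 members tested above the filter, 24 rose and 0 fell in striatum, against 18.3% of genes that rose and 35.1% that fell. In cortex 23 rose and 1, Dusp6, fell, against 19.1% and 34.4%. The lines differed in 53.3% of all genes tested in striatum and in 53.5% in cortex, more of them lower than higher in PVCre. In both regions 22 members rose, against 15.0% of genes. The regions share no array, but whether their pools share mice is not given, so the regions may not be independent. Arc, Egr4, Jun and Npas4 were called in neither region. In 20 members every PVCre array, of either region, lay above every PV-tdTomato array, as it did in 10.3% of genes. Within striatum no array overlapped for 24 members that were higher (17.0% of genes) and for 1 that was lower (33.2%). Within cortex this held for 20 higher (17.3%) and 0 lower (29.7%). Asking for a difference larger than 1 on the log2 scale (limma's treat) left 10 members in striatum and 9 in cortex, all higher, against 1.25% and 1.34% of genes. In 7 members (Jund, Egr4, Atf3, Ier5, Nr4a3, Klf2 and Btg2) the PV-tdTomato means of both regions were under 6.10, the brightest background mean. The size of their differences is therefore uncertain, and a rise from such levels may be understated. All probe sets together also spread less in PVCre, with upper quartiles of 7.46 to 7.71 against 7.91 to 8.04 in PV-tdTomato. Lower quartiles were 5.02 to 5.29 against 4.99 to 5.07. The effect of this on low levels was not tested.

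**Figure D1:**
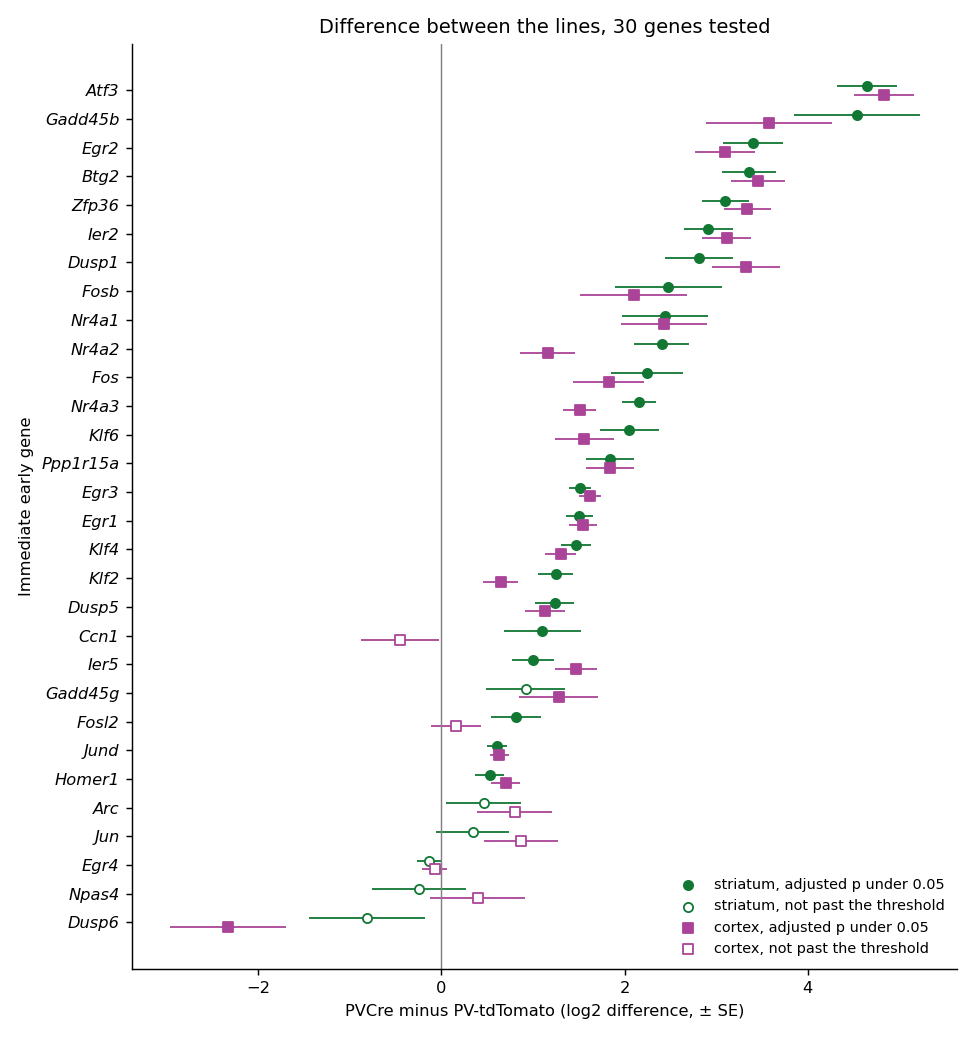
Difference between the lines for each of the 30 members tested (x axis, PVCre minus PV-tdTomato on the log2 scale, with its standard error), in striatum (green circles) and cortex (purple squares). Filled symbols passed the threshold, and all of them lie to the right of 0 apart from Dusp6 in cortex, at -2.33.

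The scaling of the arrays moved the median of all genes across 0. With each array centred on its median, the median difference of all genes went from -0.23 to 0.09 in striatum and from -0.22 to 0.12 in cortex. The genes called then split into 6138 higher and 4381 lower in striatum, from 3704 and 7116, and into 6647 and 4152 in cortex, from 3875 and 6976. Under this centring 25 members rose in each region. Leaving out the 6 arrays lowest in Pvalb kept only replicates 1 and 2 of each PV-tdTomato group and replicates 1 and 3 of PVCre cortex, beside all PVCre striatum arrays. Without those 6 arrays, 24 rose in striatum and 21 in cortex, against 16.9% and 17.0% of genes. Npas4 fell there in striatum, where 39.1% of genes fell. Without the 8 arrays highest in Xist, which leaves 1 PVCre array in each region, assumed to vary like the others, 15 rose in striatum and 16 in cortex, against 6.37% and 9.27% of genes. Dusp6 was at -4.00 there in cortex. The PVCre cortex array left was replicate 2, low in Pvalb and Gad1 and lowest in Dusp6 (6.49). The calls lost in striatum were those of Ccn1, Dusp1, Fos, Fosb, Fosl2, Homer1, Jund, Klf2 and Nr4a1, and in cortex those of Dusp5, Fos, Fosb, Gadd45g, Homer1, Klf2 and Nr4a1. The errors of all these differences were wider. Some differences were about as large as with all arrays, such as Nr4a1 at 2.57 ± 0.89 and 2.38 ± 0.89, and others were smaller, such as Dusp1 in striatum at 1.89 ± 0.72 from 2.81 ± 0.37 and Fos in cortex at 1.18 ± 0.79 from 1.83 ± 0.39.

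**Figure D2:**
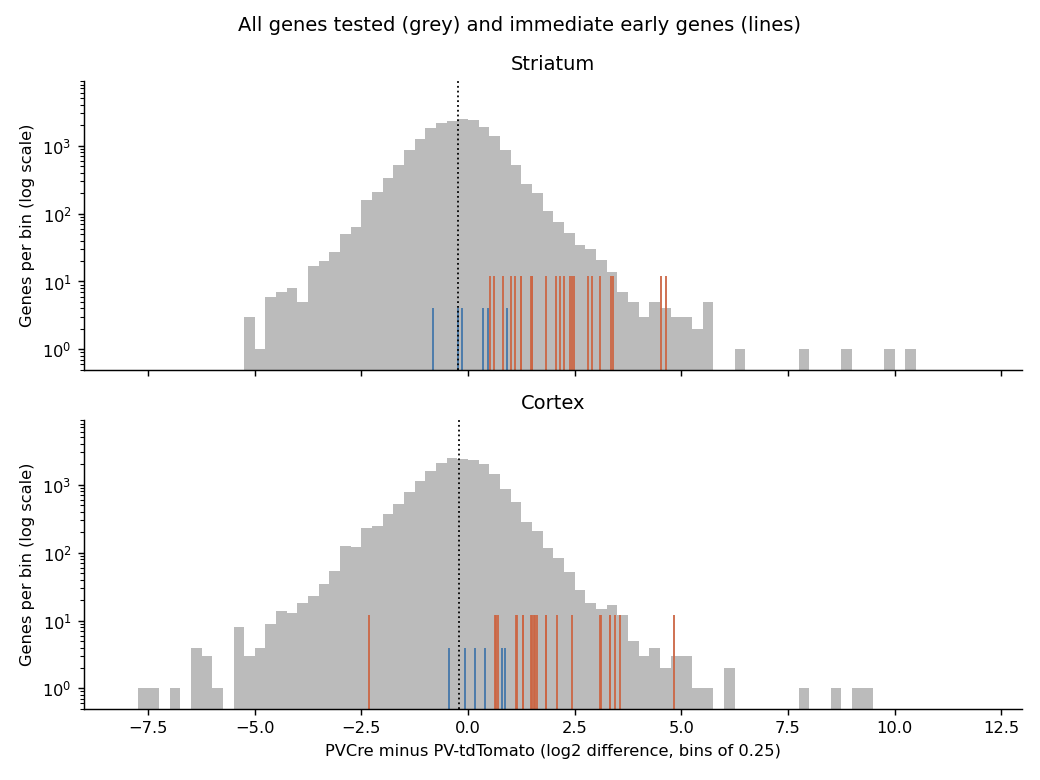
Difference between the lines of all 20284 genes tested (grey bars, number of genes per bin of 0.25 on a log axis) in striatum and cortex, with the members as vertical lines, tall and orange where they passed the threshold and short and blue where they did not. The dotted line is the median of all genes, at -0.23 and -0.22, and most members lie to its right.

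The genes set against each other were Arc, Npas4 and Nr4a2, taken as neuron-restricted, and Atf3, Zfp36 and Jun, taken as general. Each trio held genes that were called and genes that were not. Nr4a2 of the first trio rose in both regions while Arc and Npas4 were not called, and Atf3 and Zfp36 of the second rose while Jun was not called. The median difference of the first trio was 0.46 in striatum and 0.80 in cortex, and that of the second was 3.10 and 3.34. Without the 6 low-Pvalb arrays Atf3, Zfp36 and Jun all rose in both regions. Arc did so too, while Nr4a2 was called in striatum and not in cortex, and Npas4 fell in striatum and was not called in cortex. The trios were not tested as groups.

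Arc encodes a protein that removes AMPA receptors from active synapses. In striatum its levels in replicates 1 to 4 were 8.74, 8.89, 10.07 and 9.79 in PV-tdTomato and 9.95, 9.50, 10.40 and 9.47 in PVCre. In cortex they were 9.01, 9.06, 10.66 and 9.98 in PV-tdTomato and 11.20, 10.16, 9.94 and 10.63 in PVCre. The groups overlapped in both regions, because replicates 3 and 4 of PV-tdTomato were at the PVCre level and replicates 1 and 2 were below every PVCre array. The difference was 0.46 ± 0.41 (SE, limma adjusted p = 0.365) in striatum and 0.80 ± 0.41 (adjusted p = 0.112) in cortex. Replicates 3 and 4 are the low-Pvalb arrays. Without the 6 arrays lowest in Pvalb the difference was 1.02 ± 0.36 (adjusted p = 0.0374) and 1.54 ± 0.41 (adjusted p = 0.0153), past the threshold in both regions. With all arrays, Arc was also called in cortex with quantile normalization (1.39, adjusted p = 0.0154), centring (1.14, adjusted p = 0.0314) and array weights (0.91, adjusted p = 0.0429).

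Npas4 encodes a transcription factor induced by calcium entry in neurons. Its striatal levels were 9.62, 8.76, 7.47 and 7.34 in PV-tdTomato and 7.58, 8.45, 8.49 and 7.69 in PVCre. Its cortical levels were 8.29, 8.12, 6.64 and 6.87 in PV-tdTomato and 8.56, 7.25, 8.20 and 7.51 in PVCre. Here replicates 1 and 2 of PV-tdTomato, high in Pvalb, were above replicates 3 and 4, the opposite of Arc. The differences of -0.25 ± 0.52 in striatum (adjusted p = 0.712) and 0.40 ± 0.52 in cortex (adjusted p = 0.535) were within the spread of the replicates. The striatal sign turned with quantile normalization (0.19), with centring (0.08) and without PV-tdTomato striatum replicate 1 (0.19). Without the 6 low-Pvalb arrays Npas4 was called lower in PVCre striatum, at -1.14 ± 0.33 (adjusted p = 0.017) and not called in cortex, at 0.17 ± 0.38 (adjusted p = 0.736). In that setting Arc rose and Npas4 fell in striatum. Array weights gave a call in cortex (1.17, adjusted p = 0.033).

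Nr4a2 encodes NURR1, an orphan nuclear receptor needed by dopamine neurons and induced by activity and inflammation. Its levels in striatum were 6.95, 7.08, 7.06 and 6.93 in PV-tdTomato and 10.55, 9.32, 8.88 and 8.89 in PVCre. In cortex they were 7.65, 7.82, 7.63 and 7.88 in PV-tdTomato and 9.32, 8.75, 8.42 and 9.12 in PVCre. No array overlapped in either region, and PVCre striatum replicate 1 was the highest of all. Nr4a2 rose by 2.40 ± 0.30 (SE, adjusted p = 1.62e-05) in striatum and by 1.16 ± 0.30 (adjusted p = 0.00459) in cortex. The cortical call was lost without the 6 low-Pvalb arrays, at 1.14 ± 0.52 (adjusted p = 0.106). The difference between the regions' line effects was 1.24 ± 0.42 and not called (adjusted p = 0.413), although its unadjusted p of 0.0101 was the lowest among the members.

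**Figure D3:**
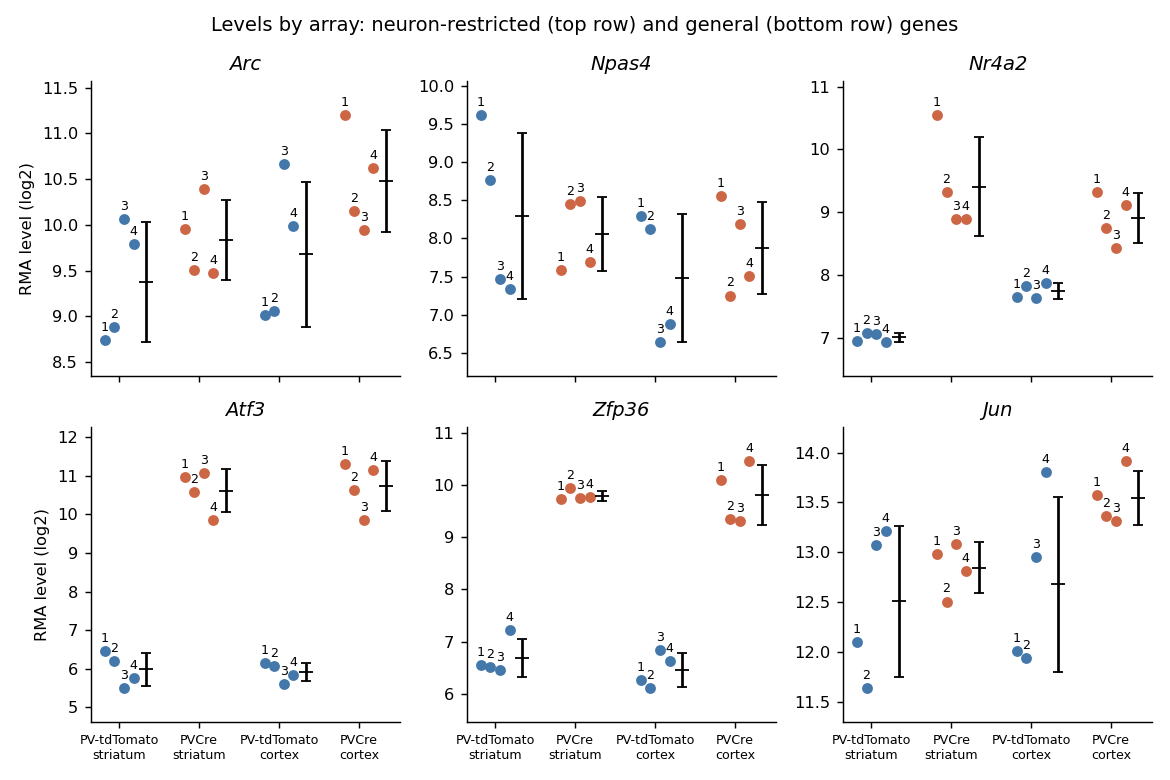
Level (y axis, RMA, log2) of Arc, Npas4 and Nr4a2 (top) and of Atf3, Zfp36 and Jun (bottom) in every array, numbered by replicate, with the group mean and standard deviation beside the points. Nr4a2, Atf3 and Zfp36 separate PVCre (orange) from PV-tdTomato (blue) in both regions, whereas Arc, Npas4 and Jun spread within PV-tdTomato between replicates 1 and 2 and replicates 3 and 4.

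Atf3, a stress-induced repressor of the ATF and CREB family, had the largest fitted difference of the 30 members tested in both regions, in striatum within a standard error of that of Gadd45b. Its levels were 6.45, 6.20, 5.51 and 5.75 in PV-tdTomato striatum and 10.97, 10.59, 11.07 and 9.85 in PVCre striatum. In cortex they were 6.14, 6.07, 5.60 and 5.84 in PV-tdTomato and 11.32, 10.63, 9.87 and 11.16 in PVCre. The means of both PV-tdTomato groups, 5.98 and 5.91, were within the range of background, and every PVCre array was at 9.85 or above. Atf3 rose by 4.64 ± 0.33 (adjusted p = 1.85e-07) in striatum and by 4.83 ± 0.33 (adjusted p = 1.64e-07) in cortex. Without the 6 low-Pvalb arrays it still rose, by 4.29 ± 0.43 and 4.49 ± 0.49.

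Zfp36 encodes tristetraprolin, which binds AU-rich elements in cytokine and early gene mRNAs and speeds their decay. Levels were 6.55, 6.52, 6.46 and 7.23 in PV-tdTomato striatum and 9.73, 9.94, 9.74 and 9.76 in PVCre striatum. Cortical levels were 6.26, 6.12, 6.84 and 6.63 in PV-tdTomato and 10.09, 9.35, 9.31 and 10.46 in PVCre. The lines did not overlap, and PV-tdTomato striatum replicate 4 was the highest array of its line. Zfp36, whose promoter stretch with an EGR motif and a CArG box is shown above, rose by 3.10 ± 0.25 (adjusted p = 5.61e-07) and by 3.34 ± 0.25 (adjusted p = 3.75e-07).

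Jun, a core subunit of the AP-1 dimer, was high in all groups. Its levels were 12.09, 11.64, 13.08 and 13.21 in PV-tdTomato striatum and 12.98, 12.50, 13.08 and 12.81 in PVCre striatum. In cortex they were 12.01, 11.94, 12.96 and 13.80 in PV-tdTomato and 13.57, 13.37, 13.32 and 13.92 in PVCre. As for Arc, replicates 3 and 4 of PV-tdTomato were higher than replicates 1 and 2, and in striatum they reached the PVCre level. In cortex only replicate 4 did. The differences were 0.34 ± 0.40 (adjusted p = 0.499) and 0.87 ± 0.40 (adjusted p = 0.0822). Without the 6 low-Pvalb arrays Jun rose by 0.98 ± 0.19 (adjusted p = 0.00293) in striatum and 1.47 ± 0.22 (adjusted p = 0.00115) in cortex. In cortex it was also called with centring (1.21, adjusted p = 0.0207) and with the replicate number as a block (adjusted p = 0.0265). The mean of 9 oligodendrocyte markers was 14.81 and 14.95 in PV-tdTomato striatum replicates 3 and 4 and 12.98 and 12.85 in replicates 1 and 2. In cortex it was 15.32 and 14.90 against 13.22 and 13.36. The mean of the 2 precursor markers, Cspg4 and Gpr17, was 13.08 and 12.31 against 9.30 and 8.95 in striatum, and 12.69 and 12.90 against 9.99 and 10.28 in cortex. The part of these cells in the levels of Arc, Jun and Npas4 was not tested.

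The other AP-1 genes also differed between the lines. Fos, the partner of Jun and the standard marker of recently active cells, had means of 9.21 ± 0.45 (SD, n = 4) in PV-tdTomato striatum and 11.45 ± 0.33 in PVCre striatum. It rose by 2.24 ± 0.39 (4.74-fold, adjusted p = 0.00027) there and by 1.83 ± 0.39 (adjusted p = 0.00131) in cortex, where PV-tdTomato replicate 4 at 11.04 overlapped the lowest PVCre array at 11.00. Fosb, whose truncated product accumulates with repeated stimulation, rose by 2.48 ± 0.58 and 2.10 ± 0.58. In cortex the Fosb levels were 11.20, 12.43, 13.26 and 14.21 in PV-tdTomato and 15.29, 13.85, 15.12 and 15.22 in PVCre, so replicate 2 of PVCre fell below replicate 4 of PV-tdTomato. Fosl2 rose in striatum by 0.82 ± 0.27 (adjusted p = 0.02) and was at 0.16 ± 0.27 (adjusted p = 0.638) in cortex. The striatal call of Fosl2 was lost without the 6 low-Pvalb arrays (0.36 ± 0.21, adjusted p = 0.167). It was also lost with array weights (0.46, adjusted p = 0.0852) and without each of PV-tdTomato striatum replicates 3 and 4 and PVCre striatum replicate 1. Array weights gave Fosl2 a call in cortex (0.54, adjusted p = 0.0417). Jund, which is expressed without a stimulus in many tissues, rose by 0.60 ± 0.11 and 0.63 ± 0.11 from PV-tdTomato means of 5.70 and 5.87, within the range of background. Of the 6 AP-1 and ATF genes tested 5 rose in striatum (18.3% of all genes) and 4 in cortex (19.1%). In either region 0 fell, where 35.1% of all genes fell in striatum and 34.4% in cortex.

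Fosl1 and Maff, also of the AP-1 superfamily, were below the filter. In the fit without a filter Fosl1 rose by 1.63 ± 0.17 (adjusted p = 3.89e-06) in striatum and 1.55 ± 0.17 (adjusted p = 6.48e-06) in cortex. Its PVCre means of 6.04 and 6.02 were no higher than the brightest background probe set. Maff rose by 1.19 ± 0.12 and 1.10 ± 0.12 from 4.22 and 4.16, with every array of either line within the range of background. Ier3, an inhibitor of cell death, rose by 0.66 ± 0.20 (adjusted p = 0.0132) and 0.64 ± 0.20 (adjusted p = 0.0163), and PVCre cortex replicate 1 at 6.13 was its only array above 6.10.

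The Egr genes encode zinc finger factors that bind GC-rich promoters, and 3 of the 4 rose in both regions, against 15.0% of genes. Egr2, also a master gene of myelinating Schwann cells, had levels of 6.68, 6.54, 6.62 and 6.60 in PV-tdTomato striatum and 10.20, 9.34, 10.81 and 9.71 in PVCre striatum. In cortex these were 6.55, 6.76, 6.68 and 6.87 in PV-tdTomato and 10.66, 9.93, 8.86 and 9.77 in PVCre. The PV-tdTomato arrays lay close together and PVCre cortex replicate 3 was the lowest PVCre array. Egr2 rose by 3.40 ± 0.33 (10.6-fold, adjusted p = 1.96e-06) and 3.09 ± 0.33 (8.52-fold, adjusted p = 4.67e-06). Egr1, a growth factor and activity response gene, rose by 1.51 ± 0.15 and 1.54 ± 0.15. Egr3, a gene of memory and muscle spindles, rose by 1.51 ± 0.12 and 1.62 ± 0.12. For both genes the rise in one region was within a standard error of that in the other. Egr4 did not pass the test (-0.13 ± 0.13 and -0.08 ± 0.13), and its means of 5.52 to 5.76 were within background in all groups. Its sign turned with centring, to 0.19 in striatum and 0.27 in cortex.

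The Klf genes, zinc finger factors of vessels, macrophages and injured cells, all rose in both regions, against 15.0% of genes. Klf6 rose by 2.05 ± 0.32 (adjusted p = 0.000112) in striatum and 1.56 ± 0.32 (adjusted p = 0.000951) in cortex, and Klf4 by 1.47 ± 0.17 and 1.30 ± 0.17. Klf2, a flow-induced gene of endothelium, had levels of 5.81, 6.01, 5.64 and 5.11 in PV-tdTomato striatum and 7.35, 6.71, 6.85 and 6.65 in PVCre striatum. It rose by 1.25 ± 0.19 in striatum and 0.65 ± 0.19 in cortex. The mean of 9 endothelial markers was 5.36 to 5.76 in PV-tdTomato striatum and 6.42 to 8.27 in PVCre striatum. In cortex it did not separate the lines, at 5.30 to 6.13 in PV-tdTomato and 5.75 to 5.90 in PVCre. PVCre striatum replicate 1, the highest in Klf2, was also the highest in these markers. Their part in the Klf2 values was not tested.

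Nr4a1 and Nr4a3 encode the other orphan nuclear receptors of the NR4A family, which bind DNA without a known natural ligand. Nr4a1 had means of 9.13 ± 0.76 and 9.29 ± 0.94 (SD, n = 4) in PV-tdTomato striatum and cortex, and 11.58 ± 0.42 and 11.72 ± 0.67 in PVCre. It rose by 2.44 ± 0.47 (adjusted p = 0.000622) and 2.43 ± 0.47 (adjusted p = 0.000645). Within PV-tdTomato its replicates 3 and 4 were above replicates 1 and 2, as for Arc and Jun. Nr4a3 rose by 2.16 ± 0.18 (adjusted p = 7.19e-07) and 1.51 ± 0.18 (adjusted p = 1.48e-05) from means of 5.92 and 5.93, within background. All 3 receptors rose in both regions, against 15.0% of genes.

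Homer1, whose short inducible form loosens the postsynaptic scaffold, rose by 0.53 ± 0.16 (adjusted p = 0.0127) in striatum and 0.70 ± 0.16 (adjusted p = 0.00218) in cortex. Which of its forms the transcript cluster reports was not examined. The rise was small but no array overlapped, with PV-tdTomato at 8.74 to 9.09 and PVCre at 9.15 to 9.93. Both calls were lost without the 6 low-Pvalb arrays, at 0.41 ± 0.21 (adjusted p = 0.12) and 0.63 ± 0.24 (adjusted p = 0.0605).

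The dual-specificity phosphatases switch MAP kinases off, and 2 of the 3 rose in both regions, against 15.0% of genes. Dusp1, which acts in the nucleus on stress kinases and ERK, had levels of 12.92, 13.01, 12.33 and 11.36 in PV-tdTomato striatum and 15.53, 14.32, 15.10 and 15.92 in PVCre striatum. Its cortical levels were 11.93, 11.58, 12.38 and 12.61 in PV-tdTomato and 15.53, 15.49, 15.38 and 15.42 in PVCre. The PVCre cortex arrays were nearly level with each other and the groups did not overlap. Dusp1 rose by 2.81 ± 0.37 (7.02-fold, adjusted p = 2.78e-05) and 3.33 ± 0.37 (10.0-fold, adjusted p = 7.15e-06). Dusp5, a nuclear ERK phosphatase whose start site is preceded by the CArG boxes shown above, rose by 1.23 ± 0.22 and 1.13 ± 0.22.

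Dusp6, the cytoplasmic ERK phosphatase, was the only member called lower with all arrays in the fit. Its levels were 9.58, 10.04, 11.08 and 11.85 in PV-tdTomato cortex and 9.53, 6.49, 9.67 and 7.55 in PVCre cortex. Replicates 2 and 4 of PVCre, the arrays low in Gad1, were far below the rest, and replicates 1 and 3 were at the level of PV-tdTomato replicate 1, so the groups overlapped. The difference was -2.33 ± 0.64 (adjusted p = 0.00675), and -1.04 without those PVCre arrays (adjusted p = 0.126). Without all 6 low-Pvalb arrays it was -0.21 ± 0.28 (adjusted p = 0.56), so the call rested on those arrays. In striatum the levels were 10.24, 10.34, 11.18 and 10.27 in PV-tdTomato and 10.02, 9.53, 10.00 and 9.22 in PVCre. All PVCre arrays there were lower, but the difference of -0.82 ± 0.64 was not called (adjusted p = 0.298). With only the striatal arrays in the fit it was called (adjusted p = 0.0308).

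The remaining members control mRNA decay, stress and growth. Of 8 tested 7 rose in each region, against 18.3% of genes in striatum and 19.1% in cortex. Gadd45b, a stress gene that promotes DNA demethylation and p38 signalling, had levels of 7.82, 7.67, 6.92 and 6.83 in PV-tdTomato striatum and 13.30, 11.62, 11.07 and 11.40 in PVCre striatum. In cortex these were 8.65, 8.24, 6.59 and 6.92 in PV-tdTomato and 12.36, 10.79, 9.23 and 12.33 in PVCre. PVCre cortex replicate 3 was much lower than the other PVCre arrays but above all PV-tdTomato arrays. Gadd45b rose by 4.54 ± 0.69 (23.2-fold, adjusted p = 9.01e-05) and 3.57 ± 0.69 (11.9-fold, adjusted p = 0.000595). The cortical call was lost without the 6 low-Pvalb arrays (2.34 ± 0.96, adjusted p = 0.0754).

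Btg2, an antiproliferative gene that recruits the mRNA deadenylase, was the member that passed the filter only through its PVCre arrays. Levels were 5.55, 5.21, 5.22 and 5.38 in PV-tdTomato striatum and 9.31, 8.69, 8.75 and 8.03 in PVCre striatum. In cortex they were 4.83, 4.98, 5.32 and 5.69 in PV-tdTomato and 8.96, 8.59, 7.87 and 9.20 in PVCre. All PV-tdTomato arrays were within the range of background. The rise was 3.36 ± 0.29 (adjusted p = 9.24e-07) and 3.45 ± 0.29 (adjusted p = 8.09e-07).

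Ier2, a nuclear protein gene of cell motility, had levels of 6.65, 6.44, 6.28 and 6.42 in PV-tdTomato striatum and 9.68, 9.28, 9.62 and 8.86 in PVCre striatum. Cortical levels were 6.41, 6.80, 6.46 and 7.11 in PV-tdTomato and 10.57, 9.35, 9.28 and 10.02 in PVCre. It rose by 2.91 ± 0.27 (adjusted p = 1.39e-06) and 3.11 ± 0.27 (adjusted p = 8.5e-07), without overlap. Ppp1r15a, which encodes GADD34 and restores translation after stress, rose by 1.84 ± 0.26 and 1.84 ± 0.26, nearly the same in both regions. Ier5, of the heat shock response, rose by 1.00 ± 0.23 and 1.47 ± 0.23.

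Gadd45g was called in cortex (1.28 ± 0.43, adjusted p = 0.0216) and not in striatum (0.92 ± 0.43, adjusted p = 0.085). Its PVCre striatal arrays were tightly grouped at 8.78 to 9.03, while PV-tdTomato striatum ran from 7.16 to 8.93, high in replicates 1 and 2 as for Npas4. The cortical call was lost without the 6 low-Pvalb arrays (0.61 ± 0.35, adjusted p = 0.185). It was also lost without PVCre cortex replicates 2 and 4 together (1.39, adjusted p = 0.0672), and without each of PV-tdTomato cortex replicates 3 and 4 and PVCre cortex replicate 1. Without the 6 low-Pvalb arrays the striatal difference was 0.29 ± 0.30 (adjusted p = 0.439). With the replicate number as a block and all arrays it was called (adjusted p = 0.0222), as it was with quantile normalization (1.39 ± 0.40, adjusted p = 0.0103) and with centring (1.24 ± 0.42, adjusted p = 0.0228).

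Ccn1, a secreted matrix protein of vessels and wounds, was the member called between regions. In striatum its levels were 8.58, 8.32, 8.52 and 8.14 in PV-tdTomato and 9.94, 9.56, 9.37 and 9.09 in PVCre. In cortex they were 6.47, 6.99, 7.86 and 8.91 in PV-tdTomato and 7.97, 6.67, 6.80 and 6.99 in PVCre, with PV-tdTomato replicate 4 the highest. Ccn1 rose by 1.10 ± 0.42 (adjusted p = 0.04) in striatum, a call lost with the replicate block (adjusted p = 0.0622), with array weights (adjusted p = 0.0503) and without any of 7 of the 8 striatal arrays, all but PVCre replicate 4. In cortex the difference was -0.45 ± 0.42 (adjusted p = 0.381), and 0.65 without the 6 low-Pvalb arrays. In the PVCre line Ccn1 was higher in striatum than in cortex by 2.38 ± 0.42 (adjusted p = 0.00384). It was the only member called between regions in that line, where 2.86% of genes were higher in striatum and 1.04% lower. The call was lost without the 8 high-Xist arrays (2.88 ± 1.07, adjusted p = 0.363) and without PVCre cortex replicates 2 and 4 (2.11 ± 0.54, adjusted p = 0.0926). Endothelial markers, as given for Klf2, were higher in PVCre striatum as well, and their part in the Ccn1 values was not tested.

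Between regions of the PV-tdTomato line 0 of 30 members were called by limma, against 2.33% of genes; 1616 of the 20284 genes and 1 member, Nr4a2, had an unadjusted p under 0.05. Nr4a2 had no overlap there, with all cortical arrays higher, at -0.74 ± 0.30 for striatum minus cortex (adjusted p = 0.451). The direct test of whether the line effect differed between regions called 0 members and 40 genes in all (0.197%). Unadjusted p-values under 0.05 were found for 4 members, Ccn1 (1.55 ± 0.60), Nr4a2 (1.24 ± 0.42), Nr4a3 (0.65 ± 0.26) and Klf2 (0.60 ± 0.27), all with the larger rise in striatum. The lowest adjusted p was 0.413. Standard errors of this difference ran from 0.15 to 0.97 over the members, so modest differences between regions were not detectable for the more variable genes.

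Genes that act upstream of the family were mostly lower or not called. Of 32 kinases, coactivators and DNA-binding factors, 27 were tested, and 0 rose and 14 fell in PVCre striatum while 1 rose and 19 fell in cortex. Among all genes 18.3% rose and 35.1% fell in striatum and 19.1% and 34.4% in cortex. Their median difference was -0.87 and -0.79, and that of all genes was -0.23 and -0.22. Camk2b, a calcium-dependent kinase, fell by 2.09 ± 0.57 and 2.45 ± 0.57. Crtc1, a CREB coactivator, fell by 1.59 ± 0.19 and 1.20 ± 0.19. Srf, which binds the CArG box, fell by 1.13 ± 0.21 (adjusted p = 0.000451) and 0.63 ± 0.21 (adjusted p = 0.0215), and Elk1, its partner, by 1.45 ± 0.20 and 1.35 ± 0.20. Creb1 fell in cortex (-0.79 ± 0.17, adjusted p = 0.00173) and was at -0.41 ± 0.17 (adjusted p = 0.0632) in striatum. Atf1, a CREB relative, was the factor that rose, by 0.56 ± 0.17 in cortex.

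Genes taken here as later effectors of activity in neurons were called in both directions. Of 25 tested, 7 rose and 4 fell in striatum, where 18.3% of all genes rose and 35.1% fell. In cortex 6 rose and 7 fell, where 19.1% of all genes rose and 34.4% fell. Of the 25, 3 passed the filter through PVCre alone. Without a filter, of 26 with a level, 8 rose and 4 fell in striatum (22.6% and 27.7% of all genes). In cortex 8 rose and 7 fell (24.0% and 26.9%). Ptgs2, which makes prostaglandins, rose by 2.79 ± 0.65 and 2.29 ± 0.65, and Csrnp1, a cysteine- and serine-rich nuclear factor, by 2.38 ± 0.20 and 2.37 ± 0.20. Sorcs3, a sorting receptor of neurons, fell by 2.17 ± 0.49 and 4.02 ± 0.49, and Crh, corticotropin-releasing hormone, fell by 5.36 ± 0.76 in cortex. Vgf, a neuropeptide precursor, fell by 1.55 ± 0.46 and 1.25 ± 0.46.

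Early genes of NF-kappaB and cytokine signalling, which macrophages and microglia induce on the same time scale, were nearly all higher in PVCre. Of 24 listed, 23 had a level, and without a filter 21 rose and 0 fell in each region, at medians of 2.41 and 2.25, where 22.6% of all genes rose in striatum and 24.0% in cortex. Only 16 passed the filter, 8 of them through PVCre alone, with PV-tdTomato means under it in both regions. Il1a, interleukin-1 alpha, rose by 10.29 ± 0.90 and 9.45 ± 0.90, and the chemokine gene Ccl3 by 8.88 ± 0.84 and 8.55 ± 0.84. Tnf rose by 5.64 ± 0.92 and 5.14 ± 0.92, and Cxcl2 by 4.58 ± 0.46 and 3.54 ± 0.46.

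Markers of several other cell types moved with the line too. Among all genes tested 18.3% rose and 35.1% fell in striatum, and 19.1% rose and 34.4% fell in cortex. Without a filter 22.6% rose in striatum and 24.0% in cortex. All 17 microglial markers with a level rose in both regions, also without a filter, with medians of 3.03 and 3.61, Tyrobp by 5.70 ± 0.83 and 5.65 ± 0.83 among them. Of these markers 10 had PV-tdTomato means under the filter in both regions and passed it through PVCre. The defining marker P2ry12 was at 4.63 to 5.42 in the PV-tdTomato arrays, within background, and at 6.49 to 10.08 in PVCre. Of 6 perivascular macrophage markers, 6 rose in striatum and 5 in cortex, and 5 of the 6 passed the filter through PVCre alone. Both markers of oligodendrocyte precursors with a level, Cspg4 and Gpr17, fell in both regions, at medians of -3.42 and -2.99. Of 9 oligodendrocyte markers 4 rose in striatum and 6 in cortex, and their mean was at 12.85 or above in every array. Of 12 genes of parvalbumin interneurons 0 rose. In striatum 3 fell, a smaller share than the 35.1% of all genes, and in cortex 7 fell (34.4% of all genes), with the GABA vesicle transporter gene Slc32a1 at -3.16 ± 0.94 and -4.82 ± 0.94. Among 8 astrocyte markers tested 0 rose and 2 fell in each region. Of 8 endothelial markers 7 rose in striatum and 1 in cortex, and 0 fell, with 4 passing the filter through PVCre alone. Of 5 pyramidal neuron markers 1 rose in each region, 2 fell in striatum and 3 in cortex. Of 6 striatal projection neuron markers 0 rose, 4 fell in striatum and 3 in cortex. Of 3 pericyte and smooth muscle markers 2 rose and 1 fell in striatum, and 1 fell in cortex. The part of microglial RNA in the members' rises was not tested.

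**Figure D4:**
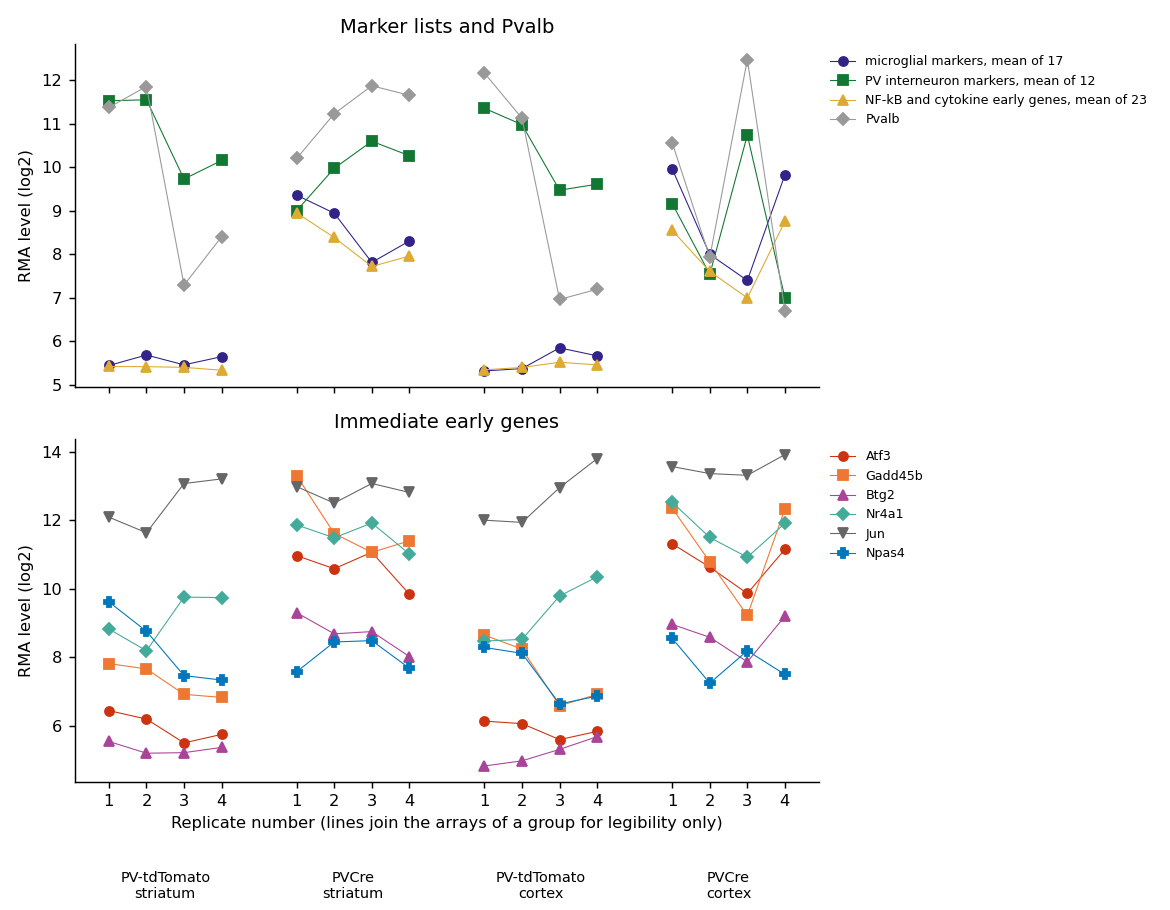
Levels (y axis, RMA, log2) in all 16 arrays of marker means, of Pvalb and of the mean of 23 NF-kappaB and cytokine early genes (top), and of 6 members (bottom), with lines joining the arrays of a group for legibility. Microglial and cytokine means are between 5.31 and 5.84 in PV-tdTomato and between 6.99 and 9.96 in PVCre, Atf3, Btg2 and Gadd45b separate the lines in every array, and Jun and Npas4 spread within PV-tdTomato.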

How the data were processed

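Each of the 16 arrays (Affymetrix Mouse Transcriptome Array 1.0) gave the log2 level of 72688 probe sets, which the authors deposited after RMA. The submitters' processing notes name Affymetrix Expression Console for this; its version, and which arrays were normalised together, are not given in the labels. RMA makes array distributions alike, so a shift shared by most genes is partly removed. Amplification started from 5 ng of RNA, per the labels' protocols.

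Of 65956 transcript clusters without controls, 30888 were annotated with 1 gene, 1862 with several and 33206 with none listed; clusters with several genes were not used, and 827 symbols were updated through RefSeq. For each of 30426 genes the cluster with the highest mean was kept. Genes with a mean level under 5.53, the lower tercile, were left out, which left 20284. limma 3.58.1 (R 4.3.3) fitted 1 mean per group over all 16 arrays, with moderated variances and Benjamini-Hochberg adjustment over all genes; a gene was called at an adjusted p under 0.05. The script was tested on simulated data. Tables were made with pandas 2.3.3 in Python 3.11.15 and figures with matplotlib 3.10.9. The number of arrays limits the precision, and levels of different genes were not compared.

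The members and lists were chosen with earlier results of these data known. All members are named; other genes were named as the examples of their list. Groups and replicate numbers came from the sample titles, whose numbers differ from those of the descriptions in PVCre cortex. No arrays held identical values. Same-numbered arrays of the PV-tdTomato regions deviated together (r 0.58 to 0.76 in 4 pairs, across genes), but striatal replicates 2 and 4 matched cortical 1 and 3 best. Other same-numbered arrays were mixed (r from -0.64 to 0.69), with replicate 3 of the PVCre regions at 0.69. A fit with the replicate number as a block was run beside the unblocked one reported. Between PV-tdTomato regions these called 438 and 472 genes, 0 members in both. The block also joins equal numbers of the lines, which are different mice, so its line effects are not those of paired arrays. Alternatives were other filters and scalings, array weights, a robust prior, a minimum difference, a replicate block, fewer arrays and every cluster kept. Leaving out the low-Pvalb arrays, the high-Xist arrays, and PVCre cortex replicates 2 and 4 was chosen after seeing the data.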

Additional observations from a re-analysis of the deposited data

Results flagged for a closer look

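In 8 of 132 groups of 4 arrays a member had an array apart from the rest by Dixon's criterion, about the 1 in 20 that chance gives. In PVCre cortex, Fosb was at 13.85 in replicate 2 and at 15.12 to 15.29 in the others. In PV-tdTomato striatum, replicate 4 stood apart for Egr1 (6.22, others 6.50 to 6.54), Zfp36 (7.23, others 6.46 to 6.55) and Nr4a3 (5.71, others 5.96 to 6.00). Replicate 3 of the same group stood apart for Dusp6 (11.18, others 10.24 to 10.34) and Klf6 (10.26, others 10.72 to 10.78). Zfp36 was at 9.94 in PVCre striatum replicate 2 and 9.73 to 9.76 in the others, and Klf4 at 6.94 in PV-tdTomato cortex replicate 4 and 6.60 to 6.66 in the others.

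Members left out of the main tests by the filter on low levels differed between the lines as well. Fosl1 was higher in PVCre by 1.63 in striatum and 1.55 in cortex, Ier3 by 0.66 and 0.64, and Maff by 1.19 and 1.10. The other clusters of Egr3, not used above, were higher by 2.06 and 2.00 in striatum and by 2.18 and 1.85 in cortex, where the cluster used gave 1.51 and 1.62.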

How the results depend on the processing

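The minimum difference and the high-Xist arrays left out are set aside here. Of the 24 members called in striatum 21, and of the 24 called in cortex 19, were called under every other alternative that tested them. More calls were lost with the high-Xist arrays left out. A minimum difference of 1 left 867 genes (10 members higher) in striatum, 956 (9 higher, 0 lower) in cortex, 0 for the interaction, and 69 and 106 (0 members) between regions of PV-tdTomato and PVCre. Without the 8 high-Xist arrays these were 3701 (15 members higher), 6139, 0, 156 and 94 (0 members). Without the 6 low-Pvalb arrays 1 member was lower in striatum and 0 in cortex, the interaction called 153 genes, and PV-tdTomato regions differed in 1033 (1 member higher). Without PVCre cortex replicates 2 and 4, 0 members were lower in cortex, the interaction called 6 genes and PVCre regions differed in 315 (0 members). With array weights the interaction called 130 genes, PV-tdTomato regions differed in 1632 (1 member higher) and PVCre regions in 2488 (2 higher, 2 lower). With only the arrays compared, 1 member was lower in striatum, PV-tdTomato regions differed in 282 genes (1 member lower) and PVCre regions had 2 members higher. With a stricter filter, at the median level, 22 members were higher in striatum and 21 in cortex, and members under it were not tested. PV-tdTomato regions then differed in 302 genes.

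With 1 array left out at a time, the lines differed in 9771 to 10969 genes in striatum (22 to 25 members higher) and 9760 to 10988 in cortex (22 to 23 higher). The interaction called 21 to 69 genes, PV-tdTomato regions 337 to 495 (0 to 1 members lower) and PVCre regions 510 to 820 (1 to 2 members higher). Jun was gained in cortex without PV-tdTomato replicate 4, Arc in cortex without replicate 3, and Gadd45g in striatum without PV-tdTomato replicate 1 of either region.

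With the replicate block 24 members were higher in each region and 2 between PVCre regions, and the PV-tdTomato regions differed in 438 genes (0 members).

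Signs turned for members that were not called. Npas4 in striatum was at 0.19 with quantile normalization, 0.076 with centring and between -0.57 and 0.19 with 1 array left out (0.19 without PV-tdTomato striatum replicate 1), and in cortex at -0.51 without the high-Xist arrays. Egr4 was at 0.19 in striatum and 0.27 in cortex with centring, and in cortex between -0.14 and 0.016 with 1 array left out (0.016 without PVCre replicate 2) and at 0.0095 without the low-Pvalb arrays. Fosl2 in cortex was at -0.11 without the low-Pvalb arrays and -0.29 without the high-Xist arrays, and Ccn1 in cortex at 0.65 without the low-Pvalb arrays. Fewer arrays leave less information for each test, yet some counts rose with fewer arrays. Without the low-Pvalb arrays the interaction went from 40 to 153 genes and the striatal line effect from 10820 to 11370. The cause of these changes was not tested. Levels within the range of background bound what can be said of low genes.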
